A study of Homo sapiens with 5 samples.

Results

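Chromosomes 13 and 15 are acrocentric: the centromere lies close to one end, and the short arm is a stub. They were examined as 437 of the 6083 bins of 500 kb that cover the autosomes and chromosome X, all 231 bins of chr13 and all 206 bins of chr15. Bins were taken by position, and the chromosomes were chosen with earlier results of these data known. The short arms of the 5 human acrocentric chromosomes (13, 14, 15, 21 and 22) carry the ribosomal RNA gene arrays and satellite repeats, and they come together at the nucleolus, where ribosomes are made. The first megabases of their long arms therefore lie beside nucleolar DNA. The first 38 bins of chr13 and the first 40 of chr15 held no contact in any matrix, so contacts of the ribosomal arrays themselves could not be counted.

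The cells were HL60, an established human promyelocytic leukemia line, studied by in-solution Hi-C, in which DNA ends that lie close together in fixed nuclei are joined and the joined pairs are counted. There were 3 conditions: untreated cells, cells given all-trans retinoic acid (ATRA), known to drive HL60 toward granulocyte-like cells, and cells given the phorbol ester TPA, an activator of protein kinase C known to drive them toward macrophage-like cells. The labels name no dose or time. The untreated and TPA matrices each merge 2 libraries and the ATRA matrix holds 1, so each condition was measured once, with no spread between replicates and no test. No library was shared between conditions, and library and treatment cannot be told apart: differences below are differences between these matrices. Series of values are given in the order untreated, ATRA, TPA, and pairs of changes, always against untreated cells, in the order ATRA, TPA. Ranges in parentheses after a ratio, a share or its change are exact 95% intervals (Poisson, binomial and conditional binomial) that cover counting error only.

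The matrices held 10628045, 9632300 and 10423501 contacts. Of these, 609304, 614329 and 633993 had at least 1 end on chr13 and 573183, 529117 and 559525 at least 1 end on chr15. Contacts began at 19 Mb on chr13 and at 20 Mb on chr15, which left 193 and 166 bins of long arm. The compartment analysis kept all 193 bins of chr13 and 160 of chr15, the other 6 having under 0.2 times the contacts of the median bin in at least 1 matrix.

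Both long arms were covered above the level of the median bin of the genome. With that bin set to 1, the median bin of chr13 measured 1.06, 1.11 and 1.11, ranked 10, 6 and 6 among 23 chromosomes. The median bin of chr15 measured 1.20, 1.17 and 1.14, ranked 6, 3 and 5. The highest bins of chr13 lay at 99 to 99.5 Mb (2.17, 2.27 and 2.31) and at 100 to 100.5 Mb (2.26, 2.10 and 2.15), and the highest of chr15 at 70 to 70.5 Mb (2.02, 1.75 and 1.98). The first and last bins of the chr13 arm were thinly covered in all 3 matrices, with 0.332, 0.426 and 0.373 at 19 to 19.5 Mb and 0.320, 0.245 and 0.292 at 115 to 115.5 Mb.

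Chr15 was thin at its centromeric end and at scattered single bins. The 5 bins from 20 to 22.5 Mb had means of 0.189, 0.195 and 0.207 and formed the only run of 3 or more bins on either chromosome below 0.4 in all matrices. No such run lay above 2.5. Farther out, single bins dropped between better covered neighbours, at 28.5 to 29 Mb (0.148, 0.121 and 0.145), 30.5 to 31 Mb (0.113, 0.110 and 0.101), 32.5 to 33 Mb (0.237, 0.239 and 0.211) and 82.5 to 83 Mb (0.121, 0.112 and 0.116). The last bin, 102.5 to 103 Mb, held 8, 2 and 3 contacts. Each of these bins was low in every matrix.

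**Figure D1:**
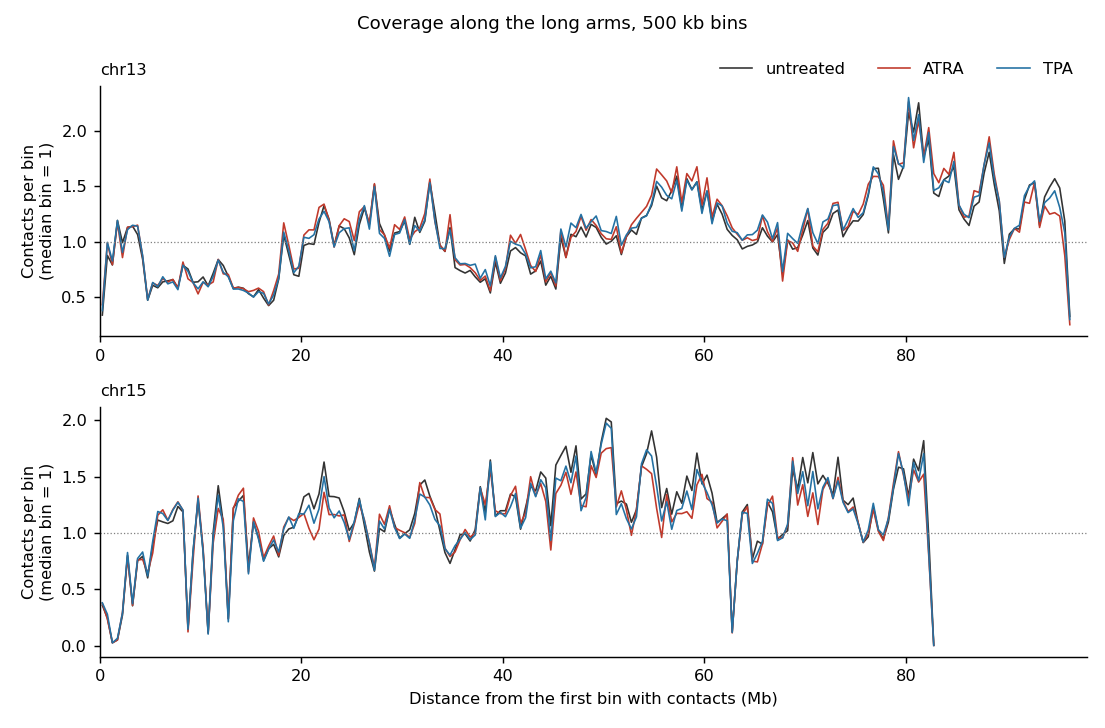
Contacts per 500 kb bin relative to the median bin of the genome, which is set to 1, along the long arms of chr13 and chr15, by distance in Mb from the first bin with contacts, with 1 line per matrix. The 3 lines lie close together, chr13 has a long low stretch near its start (median 0.602 in the untreated matrix), and chr15 has isolated dips such as 0.113, 0.110 and 0.101 in a single bin.

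A long segment of chr13 carried fewer contacts than the rest of the arm in all 3 matrices. Counting contacts with other chromosomes, the bins from 23.5 to 37 Mb formed an unbroken run of 27 bins below 0.9 times the median bin in every matrix. Their medians were 0.627, 0.623 and 0.608, and their ranges ran from 0.469 to 0.826, from 0.444 to 0.862 and from 0.474 to 0.838. The 9 bins before the segment had medians of 0.988, 1.08 and 1.08 and the 157 bins after it 1.17, 1.20 and 1.247. No bin inside the segment could reach the median of either flank, because the run was defined by the limit of 0.9. The segment was singled out after its values were seen, so this contrast is a description.

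The low segment held bins of both compartments (the active A and inactive B sides of the chromosome, described below), and its middle, 30 to 34.5 Mb, was an A block with mean scores of 1.36, 1.17 and 1.249 SD. The next longest such run on chr13 had 7 bins (54.5 to 58 Mb). On chr15 the longest run had 2 bins, and 13 of 160 bins were below 0.9 in all matrices, against 48 of 193 on chr13. Longer runs lay on 7 other chromosomes, with 130 bins on chr5, 106 on chr3, 105 on X, 57 on chr11, 45 on chr9, 35 on chr14 and 28 on chr2, so a run of this length was not particular to chr13. How many copies of the chr13 segment the cells carry was not tested.

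The flanks of this segment met each other more often than their distance would give. Between 21.5 to 23.5 Mb and 37 to 39 Mb, the 2 Mb on either side, there were 188, 167 and 219 contacts. Against an expectation from distance and coverage, which leaves compartment out, these were 3.79 (3.26 to 4.37), 3.52 (3.01 to 4.10) and 4.01 (3.5 to 4.58) times expected. All 159 blocks of this size and separation on chr13 had medians of 0.911, 0.941 and 0.923 and highest values of 3.96, 3.52 and 4.01. The flanking pair was thus the highest of the 159 in ATRA and TPA and just below the highest in untreated cells. The 159 blocks overlap each other and include the flanking pair, so this rank is a description.

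Contacts from the flank before the segment to the last 2 Mb inside it were also raised, at 2.61 (2.07 to 3.25), 2.37 (1.84 to 3.01) and 2.64 (2.12 to 3.25) times expected. From the first 2 Mb inside it to the flank after it the ratios were 1.29 (0.906 to 1.79), 1.19 (0.807 to 1.69) and 1.24 (0.877 to 1.70), with intervals that include 1. The first and last 2 Mb inside the segment met at 1.69 (1.14 to 2.42), 3.19 (2.39 to 4.17) and 3.31 (2.56 to 4.22) times expected, on 30, 53 and 65 contacts. This last pair was lowest in untreated cells, with an interval that just overlaps the one for ATRA and lies below the one for TPA. Bins at 22.5 to 24 Mb, 34.5 to 36.5 Mb and 37.5 to 41 Mb were B in every matrix. Those at 24 to 24.5 Mb and 25 to 27 Mb were A. The part of compartment in these ratios was not tested.

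Coverage of the arms shifted little with treatment. The A bins of chr15 lost contacts, as did A bins outside chr13 and chr15. Scaled to the median bin, the median log2 change over bins of chr13 was 0.054 (quartiles 0.0038 and 0.099) with ATRA and 0.042 (quartiles -0.013 and 0.099) with TPA. Over bins of chr15 it was -0.034 (quartiles -0.14 and 0.041) and -0.029 (quartiles -0.11 and 0.025), and the first of these turned to 0.0093 when coverage was scaled by the total of each matrix. A bin was called changed when its coverage was 25% or more higher, or lower by the same factor. With ATRA, 10 of 160 bins of chr15 (6.25%) were called lower and 0 higher, beside 7.76% and 0.32% of all 5630 bins, so the share on chr15 was near the background. On chr13, 2 of 193 bins were lower, at 114.5 to 115 Mb (-0.44) and 115 to 115.5 Mb (-0.39), and 1 was higher, at 19 to 19.5 Mb (0.36). With TPA no bin of either chromosome was called, beside 0.0533% lower and 0.0178% higher over all bins.

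The 10 chr15 bins lay in 5 places: 40.5 to 42 Mb, 64.5 to 65 Mb, 75 to 76 Mb, 78 to 78.5 Mb and 90 to 91.5 Mb. The deepest fall was at 75 to 75.5 Mb, from 1.67 to 1.22 (log2 change -0.46). Over 5 Mb segments, 40 to 45 Mb changed by -0.23 (-0.25 to -0.21) and -0.14 (-0.16 to -0.12), and 75 to 80 Mb by -0.21 (-0.23 to -0.19) and -0.14 (-0.16 to -0.12). Both segments lie mainly in A blocks of chr15, and both were lower in each treated matrix by more than counting error.

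Bins were also sorted by compartment in the summed matrix, taking scores beyond 0.5 SD. The 55 A bins of chr15 had median log2 changes of -0.19 and -0.12, and its 68 B bins 0.047 and 0.016. The 1759 A bins of chromosomes other than 13 and 15 moved the same way, by -0.14 and -0.077, and their 2239 B bins by 0.068 and 0.054. The 66 A bins of chr13 had medians of 0.0035 and -0.017, and its 86 B bins 0.082 and 0.094. Chr13 thus kept the order of A below B but with A medians close to 0. The sides were assigned from a matrix that includes the treated libraries, and the difference between chromosomes was not tested.

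Contacts within each chromosome shifted away from short distances in both treated matrices. Contacts with both ends on chr13 made up 21.7 (21.6 to 21.8), 16.4 (16.3 to 16.5) and 19.4 (19.3 to 19.5) percent of its contacts, and those with both ends on chr15 21.8 (21.7 to 21.9), 17.6 (17.5 to 17.7) and 20.4 (20.3 to 20.5) percent. Of the contacts that join separate bins of one chromosome, 34.9 (34.6 to 35.2), 27.7 (27.4 to 28.0) and 26.8 (26.5 to 27.1) percent on chr13 spanned under 2 Mb. On chr15 the shares were 41.4 (41.1 to 41.7), 33.1 (32.7 to 33.4) and 32.8 (32.5 to 33.1) percent. The treated matrices lay below the untreated one by more than counting error on both chromosomes.

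The fall on chr15 was among the larger ones. Its share of short contacts fell by 8.36 percentage points with ATRA, rank 5 of 23 chromosomes counted from the largest fall, and fell by 8.60 points with TPA, rank 7. The share on chr13 fell by 7.13 points (rank 16) and fell by 8.09 points (rank 15). Scaled to the total of each matrix, contacts at 0.5 to 2 Mb were 0.686 (0.675 to 0.698) and 0.748 (0.736 to 0.760) times those of untreated cells on chr13 and 0.682 (0.671 to 0.693) and 0.748 (0.737 to 0.760) times on chr15.

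At longer distances the treatments parted. Chr13 contacts at 2 to 10 Mb were 0.910 (0.894 to 0.927) and 1.16 (1.14 to 1.17) times those of untreated cells, lower with ATRA and higher with TPA. On chr15 the ratios were 0.924 (0.907 to 0.941) and 1.06 (1.04 to 1.08). Beyond 50 Mb they were 1.01 (0.974 to 1.04) and 0.978 (0.947 to 1.01) on chr13, with intervals that include 1. On chr15 they were 1.1 (1.05 to 1.15) and 1.28 (1.22 to 1.34), on 3438, 3417 and 4319 contacts. Contacts between distant regions of chr15 were therefore more frequent in both treated matrices, most so in TPA.

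Compartments divide a chromosome into an active (A) side, gene-rich and early replicating, and an inactive (B) side, often near the lamina or the nucleolus. Each bin was scored by the main axis of its chromosome's contact map, in SD, with the A side set as the one in contact with gene-rich chromosome 19. Chr13, known to be gene-poor, had 87, 84 and 78 of 193 bins in A (45.1, 43.5 and 40.4 percent). Chr15 had 76, 68 and 73 of 160 bins in A (47.5, 42.5 and 45.6 percent). The A side of chr13 was weakly anchored, since its scores correlated with chr19 contact at 0.347 over 193 bins, against 0.706 over 160 bins on chr15. Bins share libraries and neighbours, so these correlations are descriptions.

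The compartment pattern was mostly shared by the 3 matrices. On chr13, 161 of 193 bins (83.4%) had the same side in all of them, 66 in A and 95 in B, and on chr15 134 of 160 bins, 61 in A and 73 in B. The long A blocks of chr13 lay at 30 to 34.5 Mb, 48.5 to 53 Mb (mean scores 1.29, 1.68 and 1.76) and 77.5 to 81.5 Mb (1.16, 1.20 and 1.41), and its longest B blocks at 54 to 60 Mb (-0.83, -0.99 and -0.95) and 81.5 to 87 Mb (-0.86, -0.84 and -0.85). In untreated cells each 10 Mb segment from 60 to 110 Mb had 5 to 8 of 20 bins in A. The last segment, 110 to 115.5 Mb, was again in A, with 11, 9 and 9 of 11 bins.

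Chr15 had its A blocks farther out, at 40 to 45.5 Mb (1.26, 1.21 and 1.13), 63.5 to 71 Mb (1.22, 1.42 and 1.39) and 73.5 to 79.5 Mb (1.20, 1.06 and 1.04). Its first 10 Mb were B, with 0, 0 and 1 of 17 kept bins in A. On chr13 the 2 bins next to the centromere (19 to 20 Mb) were also B, with mean scores of -0.76, -0.98 and -0.87. Beyond them chr13 differed: of the 20 bins from 20 to 30 Mb, 16, 17 and 13 were in A, with mean scores of 0.84, 0.63 and 0.35. The stretch from 20 to 30 Mb was thus mostly A on chr13 and B on chr15, on chr13 with the weak anchoring given above.

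**Figure D2:**
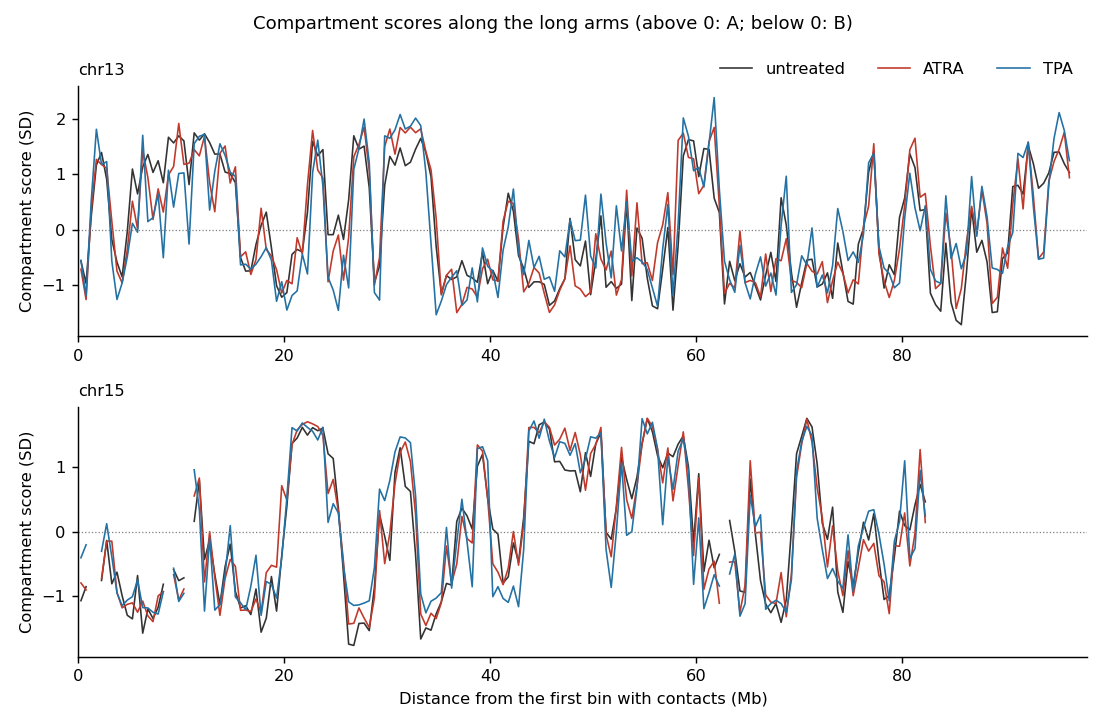
Compartment score in SD, above 0 for A and below 0 for B, along the long arms of chr13 and chr15, by distance in Mb from the first bin with contacts, with 1 line per matrix. The lines follow each other over most of both arms, and the first 10 Mb of chr15 have 0, 0 and 1 of 17 bins in A while most of the first bins of chr13 after 20 Mb are in A.

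Few bins changed side past a limit of 0.5 SD: 2 with ATRA and 4 with TPA, all on chr13 and from A to B. This direction did not hold without balancing. A switch was counted where the score went past 0.5 SD on each side of 0. With ATRA, 2 of 193 bins of chr13 went from A to B, beside 0.48% of all bins (0.446% without chr14 and chr21). They lay at 87 to 87.5 Mb (0.58 to -0.56) and 112 to 112.5 Mb (0.75 to -0.52). With TPA 4 bins did, beside 2.29% of all bins (1.45% without chr14 and chr21). No bin of chr13 went from B to A, beside 0.124% and 1.07% of all bins (0.0743% and 0.334% without chr14 and chr21). No bin of chr15 switched in either direction with either treatment. Without balancing of the matrices, chr13 had 1 bin that left A and 4 that entered it with ATRA, and 8 and 8 with TPA. With a limit of 0.25 SD, chr15 had 2 and 5 switches. By sign alone, bins that left and entered A numbered 10 and 7 on chr13 and 11 and 3 on chr15 with ATRA. With TPA they numbered 17 and 8 on chr13 and 12 and 9 on chr15. No share over all bins was computed for sign alone. With counts this small, no departure from the background is read.

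The 4 bins of the TPA matrix lay at 27 to 27.5 Mb (score 0.85 to -0.50), in the thinly covered segment, at 45 to 45.5 Mb (0.54 to -1.05), and side by side at 112 to 112.5 Mb (0.75 to -0.53) and 112.5 to 113 Mb (0.84 to -0.51). The bin at 112 Mb was listed with both treatments, which share the untreated matrix. From contacts with other chromosomes alone its scores were -0.096, -0.88 and -1.07, so by that measure it did not start in A. By the same measure 0 bins of chr13 switched with ATRA and 1 with TPA, that at 27 Mb (0.61, -0.31 and -0.67).

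Over all kept bins, scores of treated cells correlated with untreated scores at 0.892 and 0.816 on chr13 and at 0.944 and 0.898 on chr15. The saddle strength, contacts within a side over contacts between sides for the 20% of bins at each extreme, was 2.43, 2.45 and 2.10 on chr13 and 3.13, 3.64 and 4.45 on chr15. It was lowest in TPA on chr13 and highest in TPA on chr15. No interval was computed for it.

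Contacts of the long arm of chr13 with chr14, chr21 and chr22 together were not raised. Observed contacts were divided by those expected if each chromosome met the others in proportion to its contacts with other chromosomes. With chr14, chr21 and chr22 together, chr13 had 28340, 30404 and 32190 contacts, at 0.903 (0.892 to 0.913), 0.959 (0.948 to 0.969) and 0.975 (0.965 to 0.986) times expected. With chr15 added, they were 0.938 (0.930 to 0.947), 0.981 (0.973 to 0.990) and 1.007 (0.998 to 1.02), and chr15 alone is given below. With the 18 non-acrocentric chromosomes the ratios were 1.01, 1.002 and 0.999. The shortfall depended on the expectation: taken from chromosome lengths, the untreated ratio was 1.09.

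By partner, chr13 met chr14 at 0.933, 0.957 and 0.969 times expected, chr21 at 0.925, 1.01 and 0.973, and chr22 at 0.822 (0.802 to 0.842), 0.907 (0.885 to 0.929) and 0.990 (0.968 to 1.01). In untreated cells chr22 was the lowest of 22 partners, next to the small gene-rich chr19 (0.837) and chr17 (0.856). The highest were chr2 (1.08), X (1.06) and chr10 (1.05). Among the 18 non-acrocentric partners the median was 1.01 and the range 0.837 to 1.08. The values with chr14 and chr21 lay inside this range and that with chr22 below it.

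The low ratios with chr22 and chr19 moved toward 1 in both treated matrices. A change of 1.1-fold or more was counted as a call. With ATRA chr13 was called higher with 2 of 22 partners, chr19 by 0.21 (0.17 to 0.25) on the log2 scale and chr22 by 0.14 (0.092 to 0.19), beside 3.16% of all 253 pairs. With TPA it was called higher with 4, chr22 by 0.27 (0.22 to 0.31), chr19 by 0.18 (0.13 to 0.22), chr20 by 0.16 (0.13 to 0.20) and chr17 by 0.15 (0.12 to 0.19), beside 5.53% of pairs. None was called lower, beside 2.77% and 3.56%. The most lowered partners were chr2, chr8 and X with ATRA (-0.061, -0.045 and -0.043) and X, chr6 and chr4 with TPA (-0.095, -0.081 and -0.080). With chr14, chr21 and chr22 together chr13 changed by 0.086 (0.063 to 0.11) and 0.11 (0.088 to 0.13).

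The long arm of chr15 had another set of partners. It met chr16 at 1.45 (1.44 to 1.47), 1.41 (1.39 to 1.43) and 1.44 (1.43 to 1.46) times expected, the highest of its 22 partners in every matrix. Next came the acrocentric chr21 with 1.16 (1.13 to 1.18), 1.12 (1.09 to 1.14) and 1.12 (1.1 to 1.15). Chr22 ranked 3, 3 and 7, at 1.1, 1.07 and 1.00, a change with TPA of -0.13 (-0.18 to -0.088). Chr14 was the lowest partner in all 3 matrices, at 0.924, 0.936 and 0.906.

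Acrocentric partners therefore stood at both ends of the order for chr15. Together, chr14, chr21 and chr22 gave 1.02 (1.01 to 1.03), 1.01 (0.998 to 1.02) and 0.982 (0.971 to 0.994), with changes of -0.019 (-0.043 to 0.0049) and -0.059 (-0.083 to -0.036). From chromosome lengths the untreated ratio was 1.35. No partner of chr15 was called changed with either treatment. The largest changes were falls with chr22 and chr20 in TPA (-0.13 and -0.13).

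Chr13 and chr15 met each other at 1.004 (0.989 to 1.02), 1.02 (1.01 to 1.04) and 1.07 (1.05 to 1.08) times expected. In the TPA matrix chr15 was the highest partner of chr13, and the change with TPA, 0.086 (0.056 to 0.12), was below the limit for a call. For comparison, chr21 met chr14 and chr22 together at 1.37, 1.27 and 1.31 times expected, and chr19, which is not acrocentric, met chr14, chr21 and chr22 at 1.34, 1.14 and 1.16. Both were above the values of chr13 and chr15 in every matrix. Among all non-acrocentric chromosomes, the ratio with chr14, chr21 and chr22 ran from 0.858, 0.889 and 0.872 (chr6) to 1.35, 1.33 and 1.38 (chr9). These ratios include bin pairs called joined by the rule given below. With all partners counted, chr14 had 161 such pairs, chr21 100, chr9 85, chr15 18, chr19 2 and chr13 0. Their part in these ratios was not tested.

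**Figure D3:**
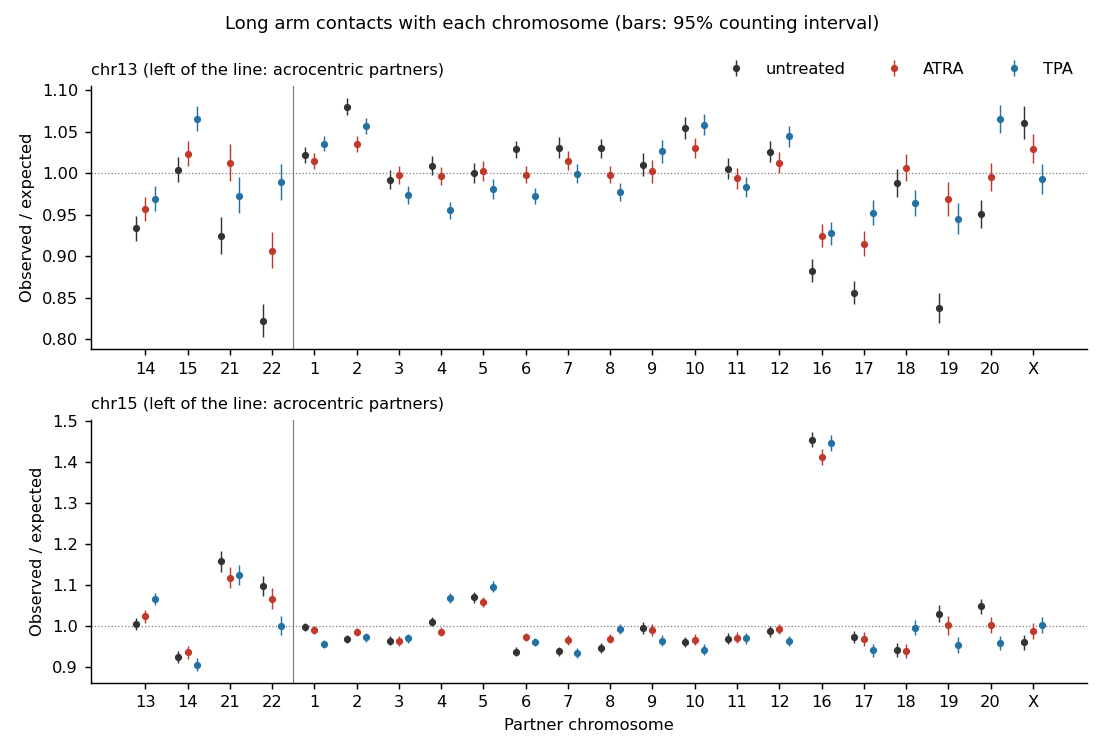
Observed over expected contacts of the long arms of chr13 and chr15 with each of 22 chromosomes, acrocentric partners left of the vertical line, 1 point per matrix with 95% counting intervals, on linear axes that do not start at 0. Chr16 stands above all other partners of chr15 (1.45, 1.41 and 1.44), and for chr13 the untreated points of chr17, chr19 and chr22 are its lowest.

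Close to the centromere chr13 met chr21 more than any other chromosome, most of all the short-arm side of chr21. The first 10 Mb from the first bin with contacts were taken on each acrocentric chromosome (19 to 29 Mb on chr13, 20 to 30 Mb on chr15, 19 to 29 Mb on chr14, 9 to 19 Mb on chr21 and 16 to 26 Mb on chr22), and the 10 Mb after the centromere gap on the others. On chr21 this window spans the centromere gap of hg19, with bins at 9 to 11.5 Mb on the short-arm side and bins from 14 Mb on the long arm. The windows of chr13 and chr21 shared 166, 143 and 162 contacts, at 2.23 (1.90 to 2.60), 1.76 (1.49 to 2.08) and 2.01 (1.72 to 2.35) times expected, rank 1 of 22 in all matrices. The 18 non-acrocentric windows had medians of 1.1, 1.01 and 1.09 and highest values of 1.32, 1.21 and 1.249. The chr21 interval lay above the highest of these in each matrix.

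The other acrocentric windows stood out less. Chr13 met chr22 at 1.254 (1.07 to 1.46), 1.19 (1.003 to 1.41) and 1.31 (1.12 to 1.52), chr15 at 1.1, 1.01 and 1.01, and chr14 at 1.04, 0.855 and 0.974. In untreated cells all 3 values lay within the range of the non-acrocentric windows. As a group, chr14, chr21 and chr22 gave 1.37 (1.253 to 1.50), 1.19 (1.08 to 1.31) and 1.33 (1.21 to 1.45). Without chr21 the group gave 1.14 (1.02 to 1.27), 1.01 (0.889 to 1.14) and 1.13 (1.01 to 1.27), next to 1.09 (1.05 to 1.14), 1.01 (0.965 to 1.05) and 1.06 (1.02 to 1.1) for the windows of non-acrocentric chromosomes. The rest of chr14, chr21 and chr22 gave 0.948, 1.001 and 0.998.

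The excess with chr21 lay mostly on the short-arm side of its centromere. Of the 20 bins of the chr21 window 15 held contacts. The 5 short-arm bins met chr13 at 3.85 (3.11 to 4.73), 2.46 (1.89 to 3.15) and 2.87 (2.25 to 3.61) times expected, and the 10 long-arm bins (14 to 19 Mb) at 1.46 (1.15 to 1.84), 1.44 (1.14 to 1.80) and 1.62 (1.3 to 1.99). With the first 10 Mb of the chr21 long arm (14 to 24 Mb) in place of the window, the ratio was 1.37 (1.15 to 1.61), 1.37 (1.16 to 1.62) and 1.48 (1.26 to 1.72), still rank 1 of 22 in each matrix, with intervals that reach into the range of the non-acrocentric windows. The group of chr14, chr21 and chr22 then gave 1.20 (1.09 to 1.32), 1.12 (1.01 to 1.23) and 1.23 (1.13 to 1.35). Along the chr13 window no steady gradient was seen in ATRA: the bins from 19 to 20.5 Mb met the chr21 window at 1.58, 2.74 and 0.730 times expected, and in untreated cells at 6.42, 5.14 and 3.51. The chr21 bin at 14 to 14.5 Mb, picked after its values were seen, had 0.120, 0.119 and 0.125 times the median coverage and 17, 7 and 23 contacts with chr13. With the 11 well covered bins of the chr21 window alone the ratio was 2.04 (1.72 to 2.41), 1.70 (1.42 to 2.02) and 1.76 (1.47 to 2.08). Acrocentric centromere regions are known to share repeats, and the part of read pairs with more than 1 possible placement was not tested.

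With ATRA, chr13 contacts with the short-arm side of chr21 were lower than in untreated cells, and the difference from its long-arm side was not tested. The 5 short-arm bins of chr21 changed by -0.64 (-1.13 to -0.17) and -0.43 (-0.89 to 0.034) and the 10 long-arm bins by -0.021 (-0.50 to 0.46) and 0.15 (-0.32 to 0.61), the first ATRA interval lying below 0. Chr13 with the 3 windows together changed by -0.21 (-0.40 to -0.013) and -0.046 (-0.23 to 0.14), and with chr21 alone by -0.34 (-0.67 to -0.0061) and -0.15 (-0.47 to 0.17). Both ATRA intervals end just below 0, and with chr21 taken from 14 Mb the group changed by -0.11 (-0.30 to 0.088) and 0.036 (-0.15 to 0.22). Windows of non-acrocentric chromosomes changed by -0.12 (-0.20 to -0.035) and -0.043 (-0.13 to 0.041).

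The first 10 Mb of chr15 met chr16 most. With the chr16 window, 46 to 56 Mb, there were 592, 616 and 579 contacts, at 3.41 (3.14 to 3.70), 3.42 (3.15 to 3.70) and 3.27 (3.01 to 3.55) times expected. With chr21 the ratio was 1.56 (1.29 to 1.87), 1.22 (0.993 to 1.48) and 1.61 (1.35 to 1.91), rank 2, 4 and 2 of 22. From 14 to 24 Mb of chr21 it was 1.40 (1.18 to 1.65), 1.24 (1.04 to 1.47) and 1.47 (1.26 to 1.71), and the rest of chr21 beyond the window gave 1.86 (1.74 to 1.98), 1.57 (1.46 to 1.69) and 1.76 (1.64 to 1.88). For chr15 the raised contact with chr21 was thus not limited to the centromeric window. It was not even along chr21: of the 885, 743 and 877 contacts with this rest, 562, 427 and 544 were with 30 to 40 Mb. That stretch holds the bins called joined with chr15 below (33.5 to 35 Mb). Chr14 (1.01, 1.07 and 1.03) and chr13 (1.1, 1.01 and 1.01) were near 1.

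With chr22 the chr15 window gave 1.08 (0.916 to 1.27), 0.781 (0.631 to 0.957) and 0.891 (0.741 to 1.06), on 148, 93 and 124 contacts, a change with ATRA of -0.47 (-0.86 to -0.089). As a group, the windows of chr14, chr21 and chr22 gave 1.16 (1.05 to 1.27), 1.01 (0.904 to 1.12) and 1.11 (1.001 to 1.22). The group changed by -0.20 (-0.41 to 0.010) and -0.065 (-0.26 to 0.13), and over the first 5 Mb alone both signs turned, to 0.14 and 0.23, so no direction is read from them. Among all windows, the 10 pairs of acrocentric chromosomes had median ratios of 1.29, 1.21 and 1.45 (1.16, 1.07 and 1.20 with chr21 taken from 14 Mb), the 90 pairs with 1 acrocentric chromosome 1.02, 1.03 and 1.02, and the 153 pairs with none 1.01, 1.02 and 1.005.

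**Figure D4:**
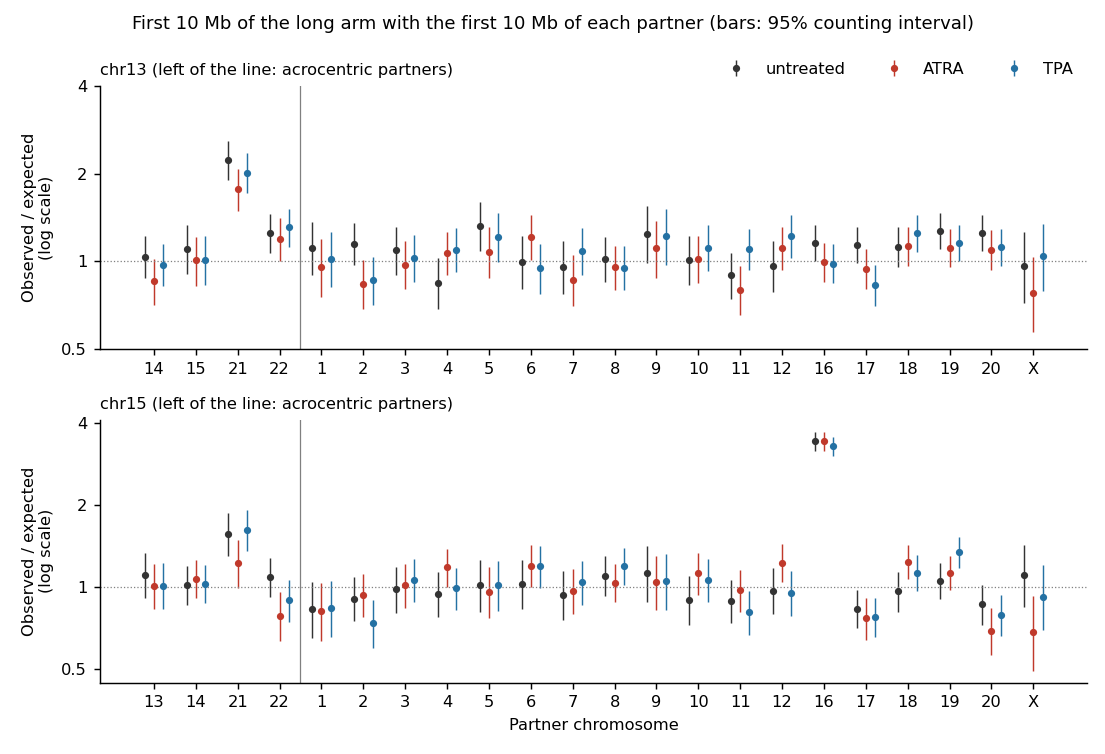
Observed over expected contacts between the first 10 Mb of the long arm of chr13 or chr15 and the 10 Mb window of each partner chromosome (for chr21 the window from 9 to 19 Mb, which spans its centromere), acrocentric partners left of the vertical line, 1 point per matrix with 95% counting intervals on a log axis. Chr21 is highest for chr13 (2.23, 1.76 and 2.01) and chr16 for chr15 (3.41, 3.42 and 3.27).

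Away from the centromere, chr13 met the acrocentric windows less. In the untreated matrix the first 10 Mb of chr14, chr21 and chr22 were met at 1.26 (1.15 to 1.38) times expected from 20 to 30 Mb, 1.12 from 30 to 40 Mb and 1.05 from 40 to 50 Mb. From 60 Mb on every segment was below 0.9, down to 0.783 (0.686 to 0.890) at the end of the arm. In the treated matrices the decline was not steady. From 40 to 50 Mb the ratios were 1.05, 1.07 (0.985 to 1.16) and 1.11 (1.03 to 1.21). From 50 to 60 Mb they were 0.990 (0.897 to 1.09), 1.21 (1.11 to 1.32) and 1.18 (1.08 to 1.28), higher again in both treated matrices but with overlapping intervals. The last segment, 110 to 115.5 Mb, was at 0.783 (0.686 to 0.890), 1.02 (0.9 to 1.15) and 0.997 (0.889 to 1.12). With chr21 taken from 14 Mb the values from 20 to 30 Mb were 1.13, 1.13 and 1.19, those from 50 to 60 Mb 0.896, 1.15 and 1.08 and those at the end of the arm 0.810, 0.956 and 0.941.

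Contact of chr13 with the whole of chr22 was higher in TPA in all 10 segments of the arm. From 50 to 60 Mb, where the change was largest, the ratios were 0.835 (0.769 to 0.906), 1.04 (0.965 to 1.12) and 1.21 (1.13 to 1.29), a TPA change of 0.54 (0.38 to 0.69). From 80 to 90 Mb they were 0.711 (0.655 to 0.770), 0.863 (0.799 to 0.932) and 0.938 (0.876 to 1.003). From 30 to 40 Mb, in the thinly covered segment for the most part, they were 0.960 (0.879 to 1.05), 1.02 (0.934 to 1.11) and 0.994 (0.912 to 1.08), with overlapping intervals.

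The end of chr13 met the ends of other chromosomes. Its last 5.5 Mb met the last 10 Mb of all other chromosomes at 1.16 (1.12 to 1.20), 1.1 (1.06 to 1.14) and 1.14 (1.1 to 1.18) times expected, while the other segments of chr13 were between 0.894 and 0.962 in untreated cells. In the summed matrix the highest pair of 10 Mb windows joined this end to the end of chr2 (240 to 243.5 Mb), at 1.61 (1.27 to 2.02), 1.69 (1.28 to 2.18) and 1.82 (1.45 to 2.25). The next was 20 to 30 Mb with chr21 from 10 to 20 Mb, which includes short-arm bins, at 1.80, 1.60 and 1.57, and then the chr13 end with the end of chr12 (130 to 134 Mb), at 1.41, 1.49 and 1.63. In untreated cells alone the order differed, with the chr21 pair above the chr2 pair. Of 2871 window pairs of chr13, these 3 reached 1.5 times expected in the summed matrix and 0 reached 2 times.

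**Figure D5:**
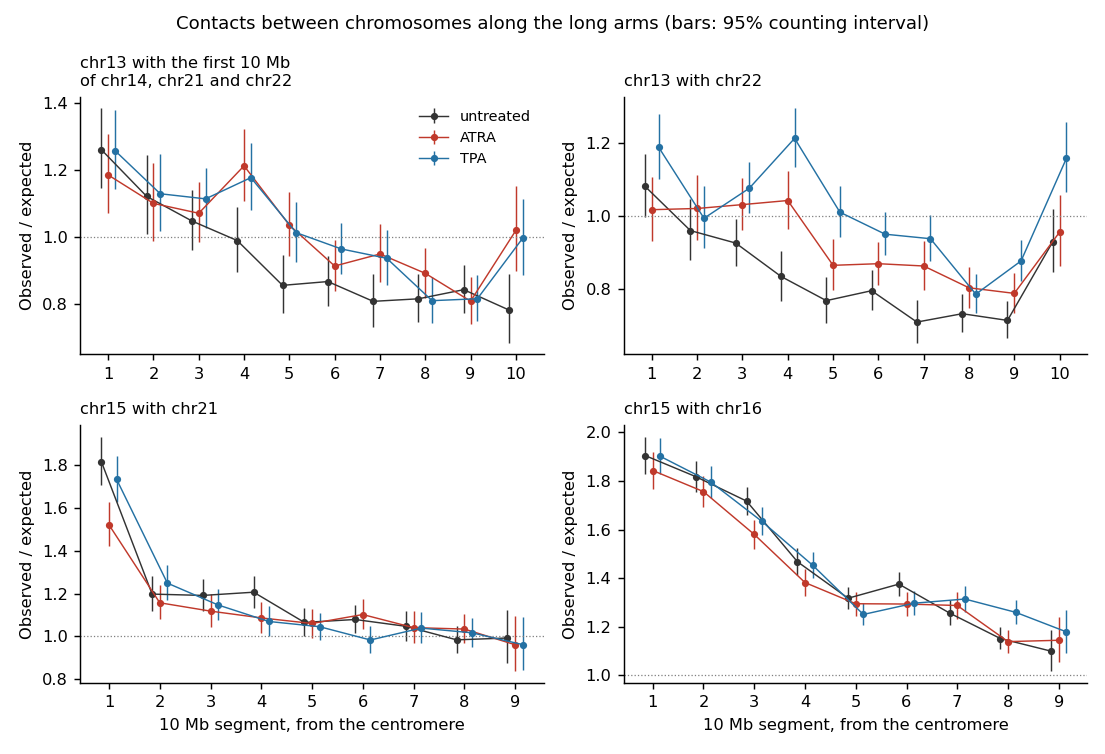
Observed over expected contacts by 10 Mb segment of the long arm, numbered from the centromere, for chr13 with the first 10 Mb of chr14, chr21 and chr22, chr13 with chr22, chr15 with chr21 and chr15 with chr16, with 95% counting intervals and axes that do not start at 0. In untreated cells chr13 declines from 1.26 to 0.783 with the acrocentric windows, and chr15 from 1.82 to 0.992 with chr21 and from 1.91 to 1.1 with chr16.

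Contact of chr15 with chr16 was graded along both chromosomes. By segment of chr15 the ratios were 1.91 (1.83 to 1.98), 1.84 (1.77 to 1.92) and 1.90 (1.83 to 1.98) from 20 to 30 Mb, 1.72 (1.66 to 1.78), 1.58 (1.52 to 1.64) and 1.63 (1.58 to 1.69) from 40 to 50 Mb, 1.32 (1.27 to 1.36), 1.29 (1.246 to 1.34) and 1.2502 (1.20 to 1.3) from 60 to 70 Mb and 1.1 (1.02 to 1.19), 1.14 (1.05 to 1.24) and 1.18 (1.09 to 1.27) from 100 to 103 Mb. The decline was not steady: from 60 to 70 Mb on to 70 to 80 Mb the untreated ratio went from 1.32 to 1.38, and in TPA the ratio was 1.31 from 80 to 90 Mb. In each matrix both values from 20 to 40 Mb were above all values beyond 40 Mb. On the chr16 side, chr15 from 20 to 30 Mb met 30 to 35.5 Mb at 4.84 (4.30 to 5.44), 3.83 (3.35 to 4.37) and 4.45 (3.94 to 5.01), 40 to 50 Mb at 3.75, 3.72 and 3.74, 70 to 80 Mb at 2.28, 2.32 and 2.26 and 80 to 90 Mb at 0.903, 0.95 and 0.832. It met the first 10 Mb of chr16 at 0.783, 0.671 and 0.880. Both ends of chr16 were thus below 1 while the part between them was raised.

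Of 2554 window pairs of chr15, 48 reached 1.5 times expected in the summed matrix, 34 of them with chr16, 9 with chr5, 2 with chr14, 2 with chr21 and 1 with chr9. At 2 times, 18 pairs remained, 16 with chr16. Outside chr16 the highest was 20 to 30 Mb with chr21 from 30 to 40 Mb, at 2.97 (2.73 to 3.22), 2.18 (1.98 to 2.39) and 2.75 (2.52 to 2.99), an ATRA change of -0.45 (-0.63 to -0.26). The maps with chr5 and chr14 were looked at after these values were seen. Chr15 from 20 to 30 Mb met chr5 from 160 to 170 Mb at 2.17, 2.23 and 2.24. It met chr14 from 40 to 50 Mb at 2.03 (1.77 to 2.31), 1.90 (1.66 to 2.16) and 1.73 (1.50 to 1.99) and chr14 from 100 to 107.5 Mb at 0.621, 0.696 and 0.444, although chr14 as a whole was the lowest partner of chr15. With chr22, chr15 was highest from 70 to 80 Mb, where most bins are in A, at 1.39 (1.32 to 1.47), 1.32 (1.247 to 1.40) and 1.18 (1.11 to 1.246).

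At the scale of single bins, chr15 had joined segments and chr13 had none. A pair of bins on different chromosomes was called joined at 20 or more contacts in the summed matrix and 10 or more times the expectation, which 0.00424% of bin pairs reached. Neighbouring pairs were merged, giving 128 segments in all. Of these, 7 involved chr15, with 18 of the 745 bin pairs, 0 involved chr13 and 60 involved chr16. On other chromosomes the number ran from 0 (chr11 and X) to 60 (chr16), with 2 on chr6 and 27 on chr7. Neither the segments of chr15 nor their absence on chr13 was thus particular to it. The share of bin pairs called on chr15 alone was not computed. The one with the most contacts linked chr15 from 22.5 to 26 Mb to chr21 from 33.5 to 35 Mb, with 175, 106 and 162 contacts, at 14.7 (12.6 to 17), 9.39 (7.69 to 11.4) and 13 (11.1 to 15.2) times expected. Another link of the same chromosomes lay at 31 to 32 Mb with chr21 from 34 to 35 Mb, at 10.5, 10.7 and 10.9.

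The other 5 segments were with chr16. Chr15 from 40.5 to 42 Mb met chr16 from 30.5 to 31.5 Mb at 12.4 (9.12 to 16.5), 6.93 (3.96 to 11.3) and 7.54 (4.97 to 11) times expected, on 47, 16 and 27 contacts. From 40.5 to 41.5 Mb it met chr16 from 66.5 to 68 Mb at 9.43, 8.36 and 7.33, on 42, 24 and 32 contacts. The remaining 3 were single bin pairs: 41 to 41.5 Mb with chr16 from 57 to 57.5 Mb (6, 9 and 9 contacts), 40.5 to 41 Mb with 28.5 to 29 Mb (4, 9 and 9), and 25 to 25.5 Mb with 34.5 to 35 Mb (6, 10 and 4). Each of the 7 segments had contacts in all 3 matrices. Whether these stretches of DNA are joined in the HL60 genome was not tested.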

How the data were processed

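The series' design text names Bowtie for alignment, HiCUP for filtering and HOMER for binning; HOMER 4.7 and the build hg19 come from the submitters' processing notes, and no Bowtie version is stated in them. For each condition the authors deposited 1 matrix of counts, without normalization, over 6203 bins (contacts inside 1 bin appear doubled there and were corrected for it). The 6083 bins of the autosomes and chromosome X were used. The mean bin pair held 0.574 (untreated), 0.521 (ATRA) and 0.563 (TPA) contacts, so values are sums over windows, and read pairs that are not independent are outside the intervals. Python 3.11.15, numpy 2.4.6 and scipy 1.17.1 were used. Scores came from 5630 bins, balanced in 60 iterations and divided by the mean at each distance. Chromosome expectations were fitted to totals between chromosomes, and window expectations to single bins. The steps were tested on simulated data, and alternatives varied the scaling, distance limits, balancing, score limit, expectation, partners and window length. Regions were named by rule: coverage runs, switching bins, extreme partners, joined segments and top windows. The members and lists were chosen with earlier results of these data known. Genes were not placed, because the annotation used here is of another build.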

Additional observations from a re-analysis of the deposited data

How the results depend on the processing

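No paired analysis was possible because the libraries of a condition are merged in 1 matrix, and for the same reason no single library could be left out. Of 94 alternative values, 54 stayed within counting error or within 1.5 times the main count, 38 moved and 2 reversed. Some of the 54 could not differ from the main value. An expectation fitted to single bins sums to the chromosome fit, so it returned the same long arm values. The windows of chr13 and chr15 with those of chr14, chr21 and chr22 held no joined bin pair, so leaving such pairs out changed nothing there. The window changes of chr15, whose intervals include 0, also turned sign over the first 5 Mb. Causes of the moves were not tested beyond what each setting changes. Coverage scaled by the total of the matrix (added after the data were seen) gave log2 changes of 0.097 (ATRA) and 0.063 (TPA) for chr13, and 0.0093 (reversed) and -0.0090 for chr15. Contacts between chromosomes alone gave 0.062 for chr13 in TPA and -0.069 and -0.049 for chr15. The share of short contacts in TPA changed by -6.46 points on chr13 and -7.87 on chr15 with a limit of 5 Mb, and by -7.28 on chr15 with contacts within a bin. Switches (ATRA, TPA) numbered 5 and 16 on chr13 and, in TPA, 3 on chr15 without balancing. They numbered 6 and 9 on chr13 and 2 and 5 on chr15 at 0.25 SD, 0 and 1 on chr13 from contacts between chromosomes, and 1 on chr13 in ATRA and 1 on chr15 in TPA with scores not centred on 0 (added after the data were seen). Without balancing, 4 of the 5 ATRA switches and 8 of the 16 TPA switches of chr13 went from B to A. Expectations from chromosome lengths gave long arm ratios of 1.09 for chr13 (reversed, from below to above 1) and 1.35 for chr15, with changes of 0.15 for chr13 in TPA and -0.18 and -0.13 for chr15. Without chr14 and chr21, which leaves chr22, the long arm ratios were 0.822 and 1.1, the changes 0.14 and 0.27 for chr13 and -0.13 for chr15 in TPA, and the window changes of chr15 -0.47 and -0.28. The first 5 Mb gave window ratios of 1.70 for chr13 and 1.28 for chr15, with changes of -0.29 for chr13 in TPA and 0.14 and 0.23 for chr15. Without its first 2 Mb, the chr13 ratio was 1.18, and with chr21 taken from 14 Mb (added after the data were seen) it was 1.20. Depth limits single bin pairs most, and windows near centromeres rest on 42 to 616 contacts a pair.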
